A study of Mus musculus with 8 samples.

Results

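Chemokine receptors are 9 genes here, *Cxcr3*, *Cxcr4*, *Cxcr5*, *Ccr1*, *Ccr2*, *Ccr4*, *Ccr6*, *Ccr9* and *Cx3cr1*, of the 18193 genes measured. They were chosen by their symbols in the array's annotation, which names them on 18 probe sets, the groups of short probes that each read 1 transcript. Each gene is represented by its brightest probe set over all 8 arrays. The study compared CD8+CD44+CD62L- T cells, the antigen-experienced effector phenotype, that were sorted from MC38 tumors or from lymph nodes (LN) of the same kind of mouse, with or without ionizing radiation (IR). All mice were C57BL/6 females of 6 to 8 weeks carrying subcutaneous MC38, a mouse colon adenocarcinoma line. The 4 groups of 2 arrays were LN without IR, LN 5 h after 5 Gy of whole-body IR, tumor without IR, and tumor 5 h after the same dose.

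Each array held RNA of cells pooled from 4 mice, and the series' design gives 2 independent experiments, without tying the replicate numbers to them. The p-values measure the spread between these pools, and the number of arrays limits their precision. Tumors were digested with enzymes and spun in Percoll, while inguinal and axillary LN, draining and not draining the tumor, were combined and pressed through a mesh, so tissue and preparation cannot be told apart. In bulk RNA, fewer cells of a type and less RNA per cell cannot be told apart either. Tumor T cells and LN T cells name the sorted samples below, and RNA of other cell types in them was not separated. Among 11 T cell identity genes none passed the test in any comparison, and *Cd8a* and *Cd3e* stood between 12.09 and 12.67 on every array (log2 intensity). *Thy1*, of the same list, was less even: it read 9.87 to 12.07, with a log2 fold change of -1.41 after IR in LN. The mean of the 11 was 11.72 in LN without IR and 11.28 with IR, and 11.5 and 11.17 in tumor. Arrays of 1 group correlated at 0.966 to 0.993 over all genes, lowest in LN with IR.

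Chemokine receptors are G protein-coupled receptors that turn a gradient of secreted chemokine into directed movement and integrin activation. In T cells, *Cxcr3*, *Ccr1*, *Ccr2* and *Cx3cr1* read inflammatory or endothelial chemokines, *Cxcr4* and *Cxcr5* read chemokines of bone marrow and lymphoid stroma, and *Ccr4*, *Ccr6* and *Ccr9* are linked to homing to skin, mucosa and small intestine. Several of them are also abundant on other leukocytes, *Ccr1*, *Ccr2* and *Cx3cr1* on monocytes and macrophages and *Cxcr5* on B cells.

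The receptors differed between tumor and LN samples in both directions. Without IR, *Ccr1* and *Cx3cr1* were higher in tumor samples, *Cxcr3*, *Cxcr5* and *Ccr4* were lower, and *Cxcr4*, *Ccr2*, *Ccr6* and *Ccr9* did not pass. A receptor passed, and is said to be higher or lower, where its log2 fold change reached 1 in either direction at an adjusted p below 0.1 (limma, Benjamini-Hochberg over all annotated probe sets). By that rule 2 of 9 receptors were higher, beside 4.50% of all genes, and 3 of 9 were lower, beside 1.04%. With IR the same rule gave 3 higher, *Ccr2* being added, beside 4.80% of all genes, and the same 3 lower, beside 2.00%. The 9 receptors had a median log2 fold change of -0.71 without IR and -0.77 with it, where the medians of all genes were -0.09 and 0.06. The contrasts with and without IR use different arrays. Of all genes that passed with IR, 70.6% were higher in tumor, and 81.0% were when each array was scaled to its T cell identity genes, a scaling under which 3 receptors were higher and 3 lower in either condition.

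**Figure D1:**
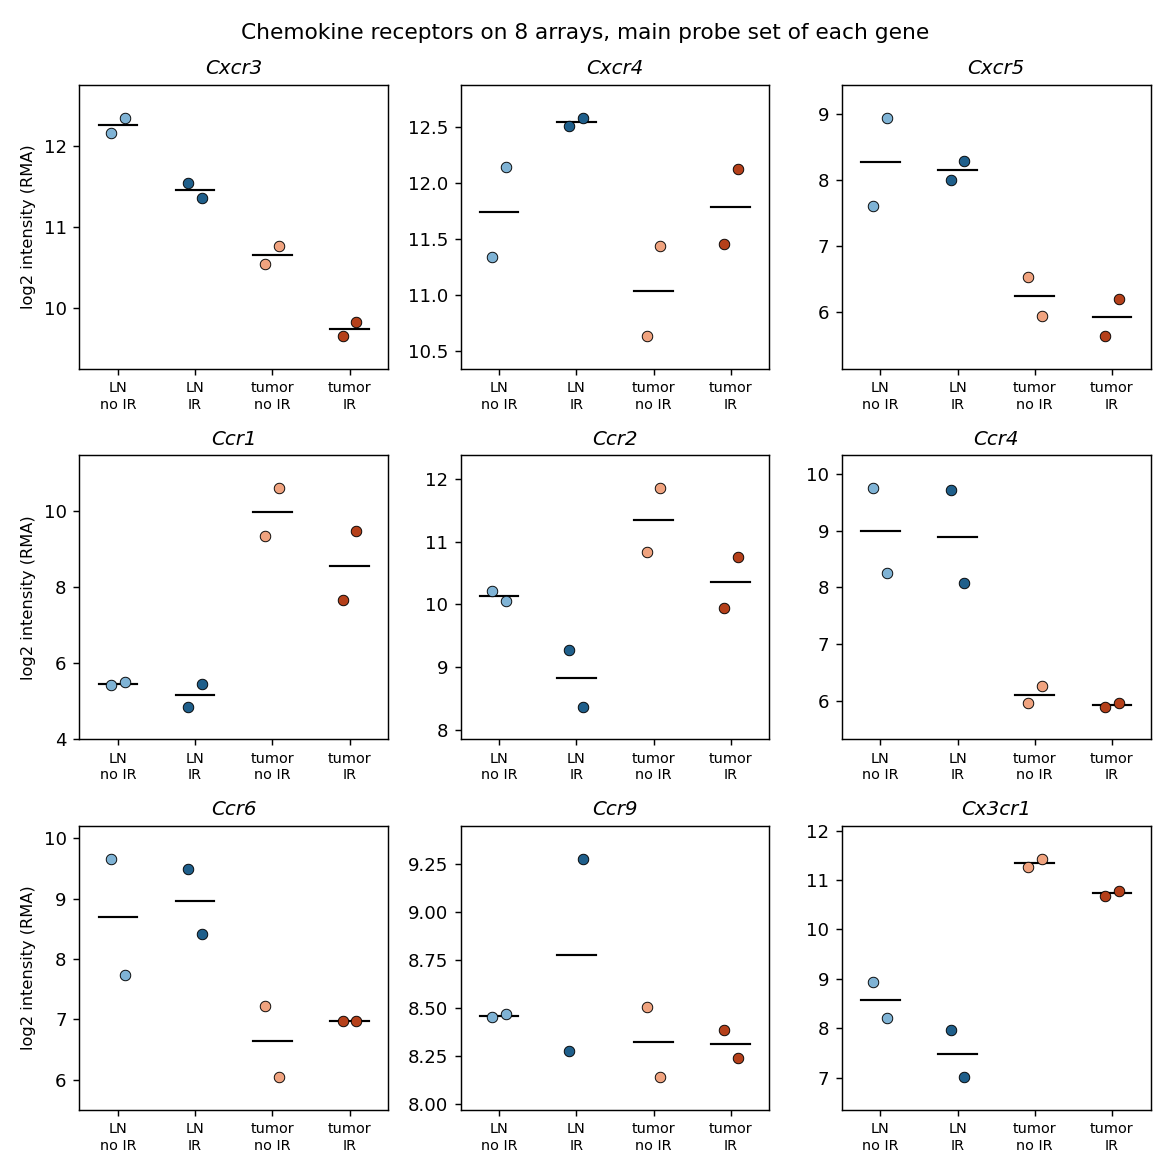
Log2 intensity (RMA) of the main probe set of each receptor, 1 panel per gene, with each point 1 array and each bar the mean of the 2 arrays of a group. Vertical axes differ between panels and do not start at 0. *Cxcr3* steps down from LN without IR (12.26) to tumor with IR (9.74) with no overlap between groups, and *Ccr9* spans only 0.46 between group means.

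**Figure D2:**
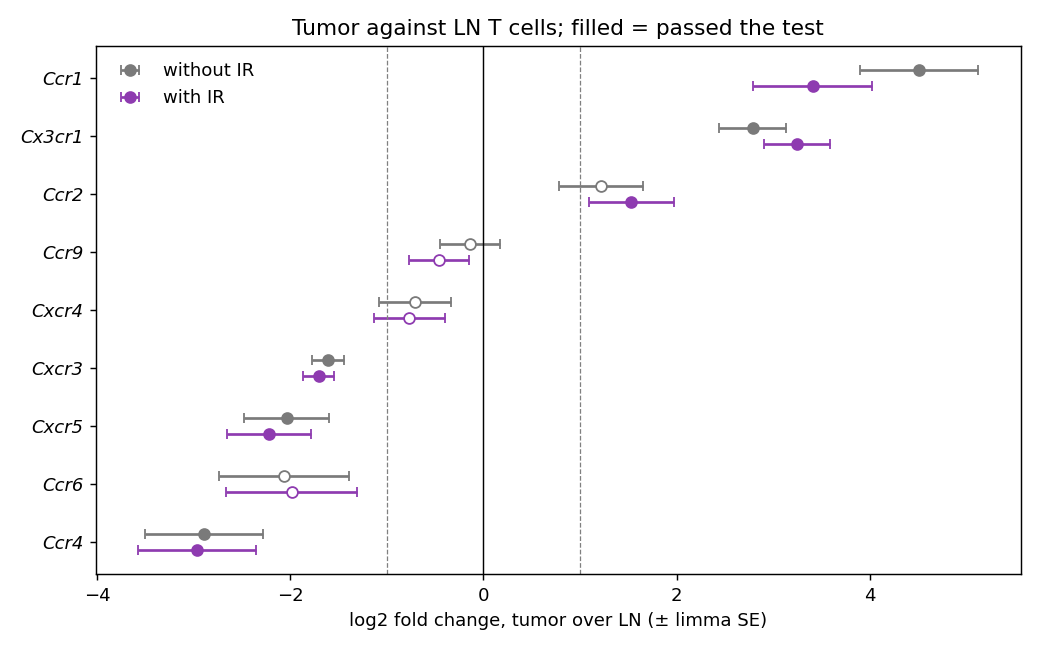
Log2 fold change of tumor over LN T cells for each receptor (horizontal axis, bars ± limma's standard error), without IR in grey and with IR in purple. Filled points passed the test, and dashed lines mark the fold limit of 1. *Ccr1* (4.51 and 3.41) and *Ccr4* (-2.89 and -2.97) lie at the ends.

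The upstream sequence of the receptors whose expression differed between tissues without IR is shown to let the regulatory region be read beside the values. RefSeq's promoter table (GRCm38.p6) held 8 of the 9 receptors, and of the receptors that differed it held 4, each given as the 100 bases before the annotated start, 5′ to 3′ on the gene's strand. Capitals mark matches on either strand to CACCC, the core of KLF factor sites, GTGTGA, the core of T-box factor sites, or CANNTG, the E box. The *Cxcr3* window (chrX:101734148-101734247, minus strand) and those of *Ccr4* (chr9:114496545-114496644, minus), *Ccr1* (chr9:123968693-123968792, minus) and *Cx3cr1* (chr9:120068297-120068396, minus) read as follows.
Cxcr3: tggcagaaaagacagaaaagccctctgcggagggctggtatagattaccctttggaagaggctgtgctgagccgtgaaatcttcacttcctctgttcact
Ccr4: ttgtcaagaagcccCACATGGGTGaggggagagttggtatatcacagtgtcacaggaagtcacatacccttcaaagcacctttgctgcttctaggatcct
Ccr1: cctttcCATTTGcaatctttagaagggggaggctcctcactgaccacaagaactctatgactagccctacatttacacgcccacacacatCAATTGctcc
Cx3cr1: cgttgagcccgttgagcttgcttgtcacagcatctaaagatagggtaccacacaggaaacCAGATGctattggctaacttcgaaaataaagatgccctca
In *Ccr4* the E box and the CACCC match, which lies on the other strand, share a base. Of the 8 receptors with a window, 4 held CANNTG (*Ccr1*, *Ccr4*, *Ccr9* and *Cx3cr1*), beside 34.4% of all 32851 windows of the same length. CACCC was in 2 (*Ccr4* and *Ccr9*), beside 27.2%, and GTGTGA in none, beside 4.95%. A match describes letters, and no match says only that these letters are not in this window.

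Of the 9 receptor genes, 6 lie on chromosome 9. In the order of RefSeq genes *Ccr9*, *Fyco1*, *Cxcr6*, *Xcr1*, *Ccr1*, *Ccr1l1*, *Ccr3* and *Ccr2* follow each other, so that 3 of the receptors described share 1 gene cluster. Their tumor to LN differences without IR were unlike on the main probe sets: *Ccr1* 4.51, which has no exact size, *Ccr2* 1.22 and *Ccr9* -0.14. The other *Ccr9* probe sets gave -0.54 to -2.34.

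*Cxcr3* binds the interferon-induced chemokines Cxcl9, Cxcl10 and Cxcl11 and is a hallmark receptor of effector CD8 T cells. It stood at 12.16 and 12.35 in LN without IR, 11.54 and 11.36 in LN with IR, 10.54 and 10.76 in tumor without IR, and 9.65 and 9.83 in tumor with IR (log2 intensity, in replicate order). No 2 groups overlapped, and the SD within a group was 0.13 to 0.15. *Cxcr3* of tumor T cells was 3.05-fold under that of LN T cells without IR (log2 fold change -1.61 ± 0.16 SE, adjusted p = 0.00242) and 3.26-fold lower with IR (-1.71 ± 0.16, adjusted p = 0.00189). It stayed bright in tumor T cells: 9.65, its lowest value, is far above the arrays' lower quartiles of 5.38 to 5.59.

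*Cx3cr1*, the receptor of fractalkine (Cx3cl1) that marks cytotoxic effector T cells as well as monocytes, went the other way. Its values were 8.93 and 8.20 in LN without IR, 7.95 and 7.01 in LN with IR, 11.27 and 11.43 in tumor without IR, and 10.68 and 10.78 in tumor with IR. All 4 tumor arrays were above all 4 LN arrays. The receptor was 6.89-fold higher in tumor samples without IR (log2 fold change 2.79 ± 0.34, adjusted p = 0.00528) and 9.50-fold higher with IR (3.25 ± 0.34, adjusted p = 0.00280). Its other probe set gave 2.73 and 2.74, both past the test.

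*Ccr1*, a receptor of Ccl3, Ccl5, Ccl7 and Ccl9, was near background on the LN arrays and higher on the tumor arrays. In LN it read 5.41 and 5.49 without IR and 4.85 and 5.45 with IR, at or under the lower quartile of the arrays. In tumor it read 9.33 and 10.59 without IR and 7.66 and 9.46 with IR, so every tumor array was above every LN array. The log2 difference was 4.51 ± 0.62 without IR (adjusted p = 0.00784) and 3.41 ± 0.62 with IR (adjusted p = 0.0208), and as the LN level is not shown to exceed background these differences have no exact size. The second, dimmer probe set read under the lower quartile on 6 of 8 arrays and gave 3.09 without IR, which passed (adjusted p = 0.0347), and 1.49 with IR, which did not (adjusted p = 0.205). Without the second tumor array with IR, the *Ccr1* difference with IR was 2.51 and no longer passed (adjusted p = 0.102). Here and wherever 1 array is left out, the lone remaining array of its group is assumed to vary like the other groups.

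*Ccr2*, the receptor of Ccl2, Ccl7 and Ccl12, was well expressed in both tissues. It read 10.21 and 10.05 in LN without IR, 9.27 and 8.37 in LN with IR, 10.84 and 11.85 in tumor without IR, and 9.95 and 10.76 in tumor with IR. Within each IR condition both tumor arrays were above both LN arrays, while tumor with IR overlapped LN without IR. The log2 fold change of 1.22 without IR (95% interval 0.18 to 2.25) did not pass (adjusted p = 0.207), and that of 1.53 with IR did (0.50 to 2.56, adjusted p = 0.0817). The test of whether IR changed the tissue difference gave 0.31 ± 0.62 (adjusted p = 0.917), so a difference between the conditions was not shown. The call with IR was lost in 10 of 21 alternative settings, and the 3 other *Ccr2* probe sets gave 0.18 to 1.23 without IR and 0.34 to 1.45 with IR, none past the test.

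**Figure D3:**
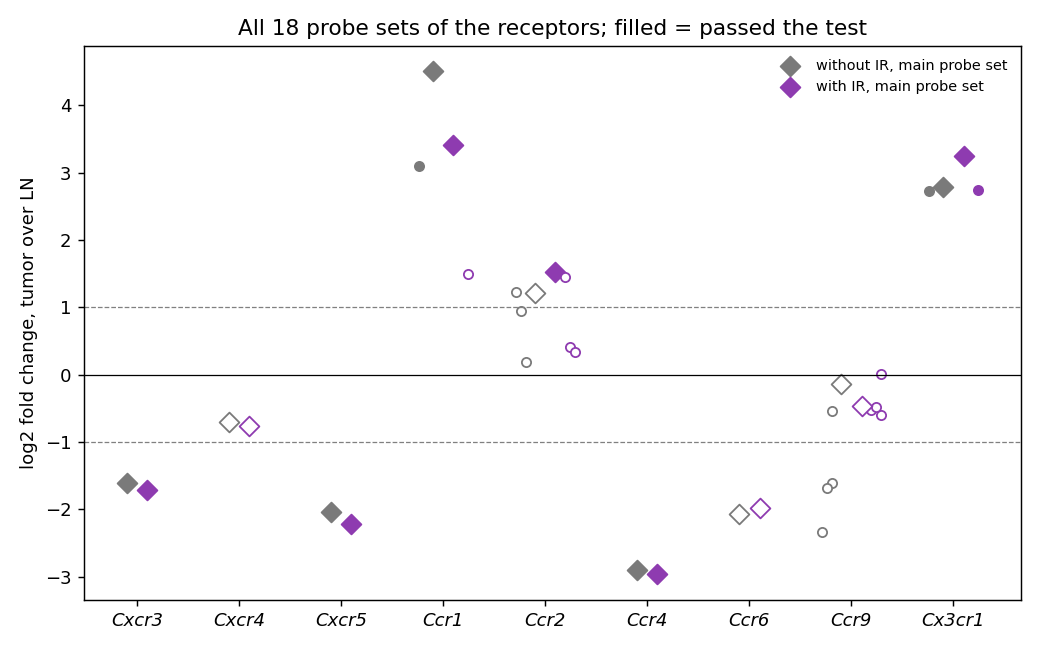
Log2 fold change of tumor over LN T cells for all 18 probe sets of the receptors, without IR in grey and with IR in purple. Diamonds are the main probe sets, circles the others, filled symbols passed the test and dashed lines mark the fold limit of 1. *Cx3cr1* probe sets lie close together (2.73 to 3.25), whereas the 5 of *Ccr9* spread from -2.34 to -0.14 without IR.

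Macrophage and monocyte markers moved with the tissue as well. Of 18 measured markers 17 were higher in tumor samples without IR and 16 with IR, among them *Lyz2*, the brightest, by 4.23 and 3.13 on the log2 scale. Their mean level was 6.05 to 6.56 on the LN arrays, 10.03 and 10.85 in tumor without IR, and 8.71 and 10.14 in tumor with IR. On the LN arrays the group means of *C1qb*, *Ms4a7* and *Cd163* lay under the lower quartile. Array by array, *Ccr1* had the same order as that mean among the 4 tumor arrays. On their main probe sets *Ccr2* and *Cx3cr1* shared its highest and its lowest array, the second without IR and the first with IR. On these probe sets the 2 tumor groups were apart, where the marker means overlapped. The tumor values were 11.27 and 11.43 against 10.68 and 10.78 for *Cx3cr1*, and 10.84 and 11.85 against 9.95 and 10.76 for *Ccr2*. On the second brightest *Ccr2* probe set the tumor groups overlapped (10.17 and 11.29 without IR, 9.18 and 10.23 with IR). They also overlapped on the third brightest, but not on the dimmest. The part of these cells in the *Ccr1*, *Ccr2* and *Cx3cr1* levels was not tested.

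*Cxcr4*, the receptor of Cxcl12, was bright in every group, and its tissue difference stayed under the fold limit. It read 11.34 and 12.14 in LN without IR, 12.51 and 12.58 in LN with IR, 10.63 and 11.43 in tumor without IR, and 11.45 and 12.12 in tumor with IR. LN with IR was above every other array, and LN without IR overlapped both tumor groups. The log2 fold change of tumor over LN was -0.71 without IR (95% interval -1.58 to 0.16, adjusted p = 0.394) and -0.77 with IR (-1.64 to 0.11, adjusted p = 0.266).

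*Cxcr5*, which guides lymphocytes to Cxcl13 in B cell follicles, was lower in tumor samples. It read 7.61 and 8.94 in LN without IR, 8.00 and 8.28 in LN with IR, 6.54 and 5.94 in tumor without IR, and 5.64 and 6.20 in tumor with IR. All 4 LN arrays were above all 4 tumor arrays, and the tumor values lay near the lower quartile. *Cxcr5* was 4.10-fold lower without IR (log2 fold change -2.03 ± 0.44, adjusted p = 0.0443) and 4.66-fold lower with IR (-2.22 ± 0.44, adjusted p = 0.0278). B cell markers fell too: 5 of 13 in each condition, with array means of 7.20 to 7.93 in LN and 6.00 to 6.20 in tumor, and their highest mean on the second LN array without IR, which also had the highest *Cxcr5*. *Ighm*, the brightest of them, had log2 fold changes of -1.87 and -1.92. Without that array *Cxcr5* was at -1.37 without IR and did not pass (adjusted p = 0.136). The call without IR was also lost without either tumor array without IR (-2.33 and -1.74, adjusted p = 0.131 and 0.297), and the call with IR without either tumor array with IR (-1.94 and -2.50, adjusted p = 0.171 and 0.115). The part of B cell RNA in the *Cxcr5* level was not tested.

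*Ccr4*, the receptor of Ccl17 and Ccl22, had the largest fall of the 9. It read 9.75 and 8.25 in LN without IR, 9.71 and 8.07 in LN with IR, 5.95 and 6.26 in tumor without IR, and 5.90 and 5.96 in tumor with IR. The LN arrays were all above the tumor arrays, but the 2 arrays of each LN group lay far apart, the first at 9.7 and the second at 8.1 or 8.2. The tumor values lay near the lower quartiles of the arrays, so the fold sizes are approximate. *Ccr4* was 7.42-fold lower in tumor T cells without IR (log2 fold change -2.89 ± 0.61, adjusted p = 0.0405) and 7.81-fold lower with IR (-2.97 ± 0.61, adjusted p = 0.0312). Leaving out the first LN array without IR gave -2.14 without IR, which did not pass (adjusted p = 0.143), and leaving out the first LN array with IR gave -2.15 with IR, which did (adjusted p = 0.0323). The call without IR was also lost without either tumor array without IR (-2.73 and -3.05, adjusted p = 0.231 and 0.200), and the call with IR without either tumor array with IR (-2.93 and -3.00, adjusted p = 0.161 and 0.181).

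*Ccr6*, the receptor of Ccl20, had the same split of replicates. It read 9.66 and 7.73 in LN without IR, 9.49 and 8.41 in LN with IR, 7.22 and 6.05 in tumor without IR, and 6.97 on both tumor arrays with IR. All LN arrays were above all tumor arrays. The log2 fold change was -2.06 without IR (95% interval -3.65 to -0.47, adjusted p = 0.165) and -1.98 with IR (-3.58 to -0.39, adjusted p = 0.128), and neither passed. A robust fit passed both (adjusted p = 0.0916 and 0.0786). In earlier work on these data that fit, with 2 arrays per group, gave too many small p-values on simulated null data, which was not repeated here. Without the second LN array without IR the difference without IR passed as well (-3.03, adjusted p = 0.0645). The 8 measured markers of CD4 and regulatory T cells, in which *Ccr4* and *Ccr6* are also known, had array means of 8.41 and 7.80 in LN without IR and 8.53 and 7.95 in LN with IR, higher on the first array of each group as with both receptors. In tumor those means were 8.02 to 8.40. *Cd4* itself was not higher on the first LN array without IR (7.93 and 8.11), but was with IR (8.43 and 8.30). No marker of this list passed without IR, where *Cd4* stood at -0.92 (adjusted p = 0.0146), and with IR 1 was lower, *Cd4*, at the fold limit itself. The part of such cells in the *Ccr4* and *Ccr6* levels was not tested.

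*Ccr9*, the gut-homing receptor of Ccl25, did not pass between tissues on any probe set. It read 8.45 and 8.47 in LN without IR, 8.28 and 9.28 in LN with IR, 8.50 and 8.14 in tumor without IR, and 8.39 and 8.24 in tumor with IR. All neighbouring groups overlapped. The log2 fold change was -0.14 without IR (95% interval -0.87 to 0.60, adjusted p = 0.861) and -0.46 with IR (-1.20 to 0.27, adjusted p = 0.434). The 4 other probe sets of *Ccr9* gave -0.54 to -2.34 without IR, and none passed. On the third brightest, where that difference was -2.34 (adjusted p = 0.162), the second LN array without IR read 9.28 and the first 6.78, and on the second brightest they read 9.57 and 7.20. *Siglech*, a marker of plasmacytoid dendritic cells, which are known to carry *Ccr9*, was likewise high on that array (10.71) and read 7.87 to 8.34 on the other LN arrays. The part of those cells in the *Ccr9* values was not tested.

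**Figure D4:**
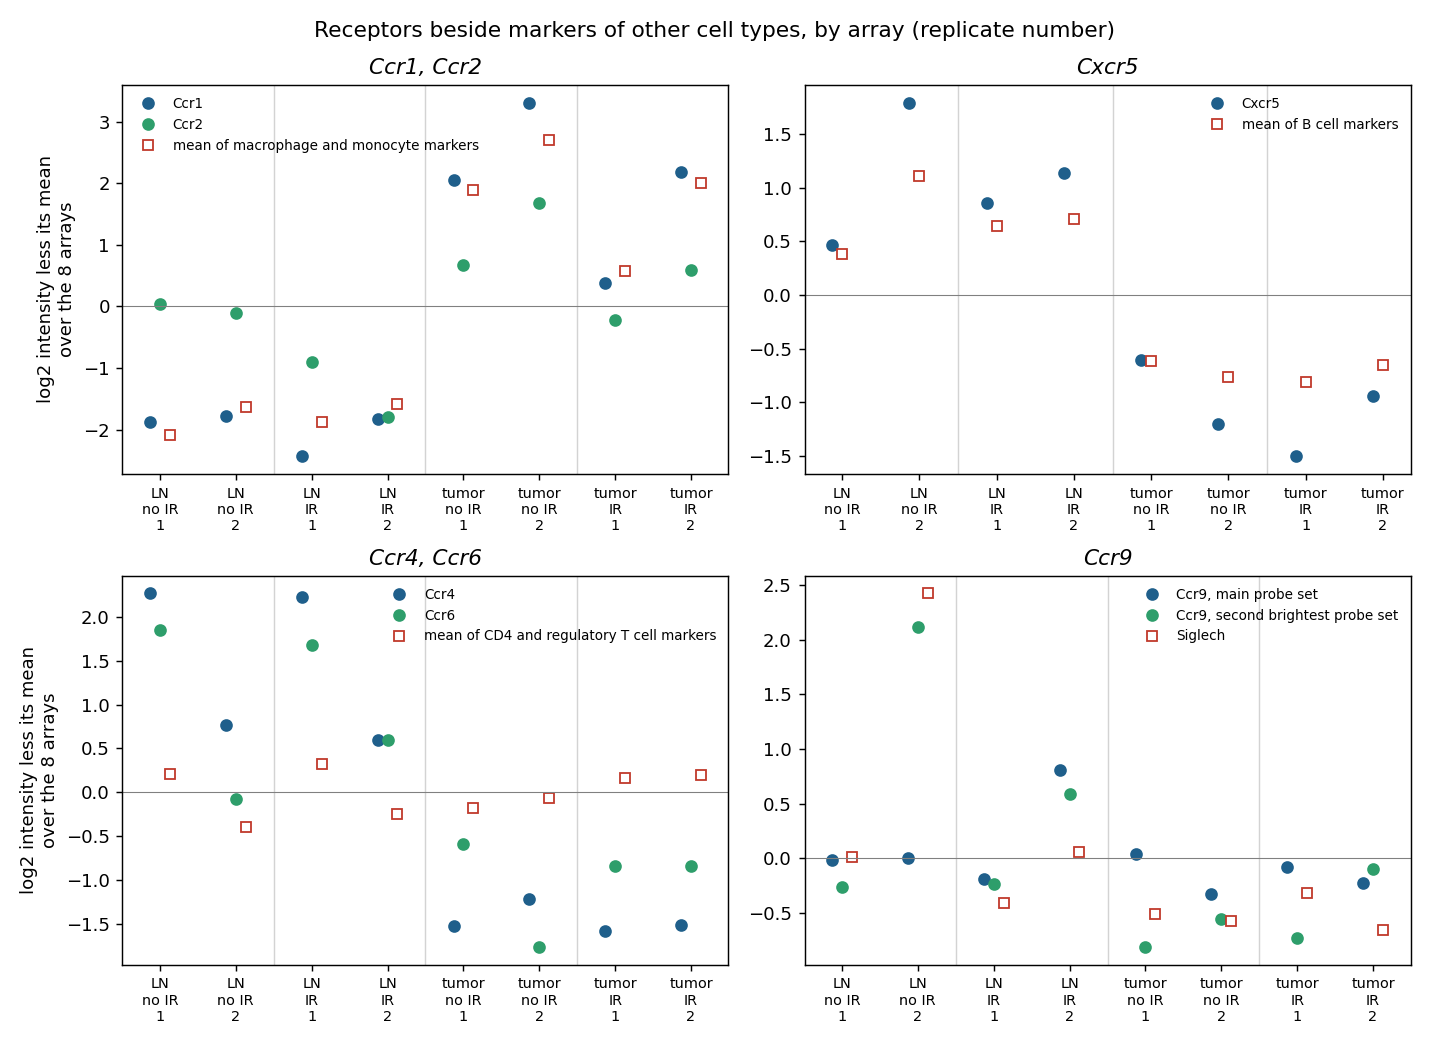
Log2 intensity of receptors (circles) and of markers of other cell types (squares) on each of the 8 arrays, less its own mean over the arrays, with replicate numbers below. *Ccr1* moves with the macrophage and monocyte mean, and *Cxcr5* moves with the B cell mean. *Ccr4* and *Ccr6* move with the CD4 and regulatory T cell mean between LN replicates, but not between LN and tumor. The second brightest *Ccr9* probe set peaks with *Siglech* on the second LN array without IR (9.57 and 10.71).

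No receptor passed the test for a response to IR. With the robust fit 1 passed in LN (*Cx3cr1*, adjusted p = 0.0687). In earlier work on these data that fit gave too many small p-values on simulated null data. Calls in LN under other settings are given with the alternatives below. In LN T cells 0 of 9 receptors rose or fell by limma, beside 0.786% of all genes higher and 0.264% lower, and in tumor T cells 0 of 9, beside 0.0934% higher and 0.00550% lower. At an unadjusted p under 0.05 there were 3 of 9 receptors in LN (*Cxcr3*, *Ccr2* and *Cx3cr1*), beside 14.3% of all genes, and 1 of 9 in tumor (*Cxcr3*), beside 16.6%. The median over the receptors was -0.13 in LN and -0.32 in tumor, where that of all genes was 0.01 and 0.09. Both arrays with IR were below both arrays without IR in LN and again in tumor for 3 of 9 receptors (*Cxcr3*, *Ccr2* and *Cx3cr1*), beside 10.6% of all genes. They were above in both tissues for 1 (*Cxcr4*), beside 14.7%. Of the genes that passed in LN 74.9% were higher after IR, but that share depended on the processing: it was 97.6% after scaling to T cell identity genes, which also left 0 of 9 receptors past the test, 49.4% with the robust fit and 25.1% without the first LN array with IR.

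*Cxcr3* had the lowest adjusted p of the 9 receptors in both tissues. Its log2 difference after IR was -0.81 ± 0.16 in LN (adjusted p = 0.102) and -0.91 ± 0.16 in tumor (adjusted p = 0.216), which is 1.75-fold and 1.88-fold lower and under the fold limit in either tissue. *Cx3cr1* stood at -1.08 in LN (adjusted p = 0.235) and -0.62 in tumor (adjusted p = 0.414). *Ccr2* stood at -1.31 in LN (adjusted p = 0.252) and -0.997 in tumor (adjusted p = 0.338). Both passed in LN, at -1.55 for *Cx3cr1* (adjusted p = 0.0178) and -1.76 for *Ccr2* (adjusted p = 0.0446), when the first LN array with IR was left out. That array and its replicate correlated least of the 4 pairs, and over all genes 1789 passed in LN without it and 191 with it.

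*Cxcr4* differed after IR by 0.81 in LN (95% interval -0.06 to 1.68, adjusted p = 0.371) and 0.75 in tumor (-0.12 to 1.62, adjusted p = 0.373), with both IR arrays above both others in either tissue, though by only 11.45 against 11.43 for the nearest tumor arrays. *Ccr1* stood at -1.40 in tumor (95% interval -2.85 to 0.05, adjusted p = 0.338), where its values moved with the macrophage and monocyte mean. The remaining 4 receptors, *Cxcr5*, *Ccr4*, *Ccr6* and *Ccr9*, differed by -0.32 to 0.33 after IR in either tissue. Their intervals were wide, for example -1.54 to 1.33 for *Ccr4* in LN, and all reached past the fold limit except that of *Ccr9* in tumor (-0.74 to 0.73).

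The IR effect was compared between the tissues directly. The difference of the effects (tumor minus LN) ran from -1.10 ± 0.87 for *Ccr1* to 0.46 ± 0.49 for *Cx3cr1*, 0 of 9 passed, and 0 had an unadjusted p under 0.05, beside 5.63% of all genes (adjusted p from 0.808 to 0.988). For *Cxcr3* the difference was -0.10 (95% interval -0.64 to 0.45), and for *Cxcr4* -0.06 (-1.29 to 1.18).

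**Figure D5:**
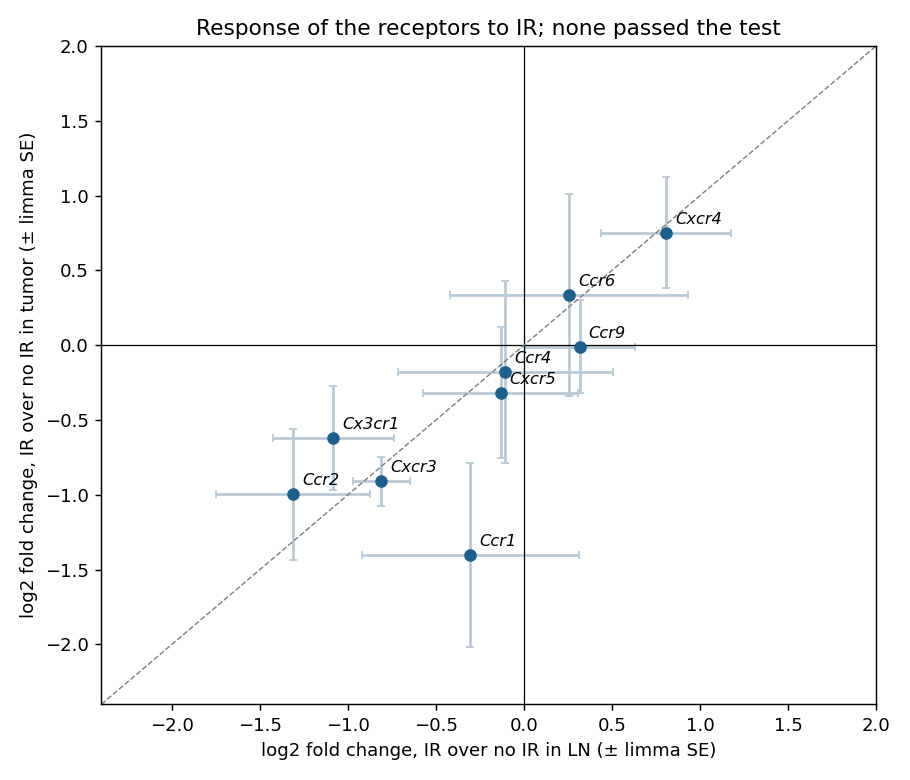
Log2 fold change after IR in LN T cells (horizontal) against that in tumor T cells (vertical) for the 9 receptors, with bars of ± limma's standard error and a dashed line of equal effects. *Cxcr3*, *Ccr2* and *Cx3cr1* lie at lower left, *Cxcr4* at upper right (0.81 and 0.75), and none passed the test.

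Other receptors of the family were counted from a list of 14, of which 12 were measured. Without IR 3 were higher in tumor samples and 1 was lower, beside 4.50% and 1.04% of all genes. With IR the counts were again 3 and 1, beside 4.80% and 2.00%. The median was -0.11 without IR and -0.06 with it. *Ackr3*, a scavenging receptor of Cxcl12, read 3.62 and 3.48 in LN without IR, under the lower quartile, and 7.81 and 7.69 in tumor, a log2 difference of 4.20 that has no exact size (5.10 with IR). Fibroblast markers had array means of 6.18 to 6.45 in LN and 8.09 to 8.55 in tumor. The part of such cells in the *Ackr3* level was not tested. *Cxcr6*, the receptor of Cxcl16 linked to tissue residence, was higher by 1.07 and 1.43. *Ccr7*, which guides T cells into LN and also stands among the naive and central memory genes, was lower, with log2 fold changes of -1.83 and -2.10. Of the 7 measured genes of that list 5 were lower without IR and 7 with IR. *Ccrl2*, an atypical receptor that binds chemerin, was higher in tumor by 2.93 without IR and 1.05 with IR, and it was the only gene of these 12 that rose in LN after IR (6.47 and 6.64 to 9.16 and 8.23, log2 fold change 2.14, adjusted p = 0.0494).

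The ligands of the 9 receptors that passed were all higher in tumor. Of 19 listed and measured, 9 were higher in tumor samples without IR, beside 4.50% of all genes, and 6 with IR, beside 4.80%. None was lower, and the median was 0.27 without IR and 0.37 with it. Among them were *Ccl9* at 4.19 and 3.19, *Ccl6* at 4.09 and 2.65 and *Ccl3* at 3.27 and 3.43 (log2 fold changes without and with IR). The *Ccr2* ligands *Ccl2* (1.81) and *Ccl12* (2.99) were higher without IR, and *Ccl2* also with IR (1.05). In LN *Ccl12* lay under the lower quartile, so its difference has no exact size. *Cxcl9*, a ligand of *Cxcr3*, was higher by 2.86 and 3.06, *Ccl4* by 1.85 and 1.77, and *Ccl8* by 1.79 without IR. The other *Cxcr3* ligands did not pass: *Cxcl10* stood at -0.30 and -1.51, and *Cxcl11* lay under the lower quartile on every array. Nor did the *Ccr4* ligands *Ccl17* (0.27 and 0.38) and *Ccl22* (-1.18 and -2.63). The single listed ligands of *Cxcr4*, *Cxcr5*, *Ccr6*, *Ccr9* and *Cx3cr1* were not among those that passed. None of the 19 passed after IR in either tissue. Macrophages are known sources of many of these ligands, and their markers moved as given above, a part that was not tested.

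Genes of receptor signaling and desensitization were counted from a list of 35. Of 34 measured, 2 were higher and 1 lower in tumor without IR, beside 4.50% and 1.04% of all genes. With IR 4 were higher and 3 lower, beside 4.80% and 2.00%. *Rasgrp2*, an exchange factor that activates Rap1 for integrin adhesion, had log2 fold changes of -2.76 and -2.03. *Arrb1*, an arrestin that uncouples and internalizes receptors, was higher by 1.12 and 1.03, and *Rgs2*, a regulator that shortens G protein signals, by 1.14 without IR. With IR, *Rgs16* (2.94), *Pik3cg* (1.25), the catalytic subunit of a phosphoinositide kinase downstream of the receptors, and *Arrb2* (1.22) were higher, and *Rgs10* (-1.78) and *Elmo1* (-1.01), a partner of the Rac activator Dock2, were lower. None of the 34 passed after IR.

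For each receptor whose group means spanned at least 1 (log2), the 3 genes with the most similar values over the 8 arrays were taken by Pearson's r. These are descriptions, since the arrays fall into 2 tissues and many genes follow that split. The genes most like *Cxcr3* were *Gdpgp1* (r = 0.993), *Ifi203* (0.992) and *Ints13* (0.991). Those most like *Cx3cr1* were *D630039A03Rik*, *Gm36723* and *Havcr2*, each at 0.994. *Ccr1* was most like *Cd300c2* (0.997), *Arg1* and *C5ar1* (both 0.994), and *Ccr2* like *Commd10* (0.982), *Pnp* and *P2rx7* (both 0.981). *Ccr4* was most like *Cdon* (0.989), *Tesc* (0.988) and *Myb* (0.984), *Cxcr5* like *Pim2* (0.985), *Ctsm* (0.984) and *Btbd11* (0.980), and *Ccr6* like *Asb18*, *Mylk3* (both 0.967) and *Zfp763* (0.965). *Cxcr4* was most like *Dnajb9* (0.971) among genes above the lower quartile. The others named by the same rule for *Cxcr4*, *Gm12130* and *Vmn1r50*, and for *Cxcr5* and *Ccr6*, *Ctsm*, *Mylk3* and *Asb18*, lay under it on every array.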

How the data were processed

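CD8+CD44+CD62L- T cells of 8 pools were measured on Affymetrix whole-genome mouse arrays. The authors normalized the arrays by RMA, which corrects background, equalizes the distributions of the arrays and summarizes each probe set, and deposited log2 values of 45101 probe sets. The RMA version was not given in the sources used here. Values entered the fit as deposited, and no depth applies to arrays.

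Genes were named from the array annotation, and a gene's brightest probe set among those naming only it was used. A least squares model of the 4 groups was fitted to 35877 annotated probe sets with limma 3.58.1 (R 4.3.3), with empirical Bayes moderation (4 residual and 3.13 prior degrees of freedom) and Benjamini-Hochberg adjustment over all of them. The thresholds, adjusted p under 0.1 and log2 fold change of at least 1, are those of the paper, which fitted robustly and intersected the calls with SAM, a step not run here. The least squares fit was tested on simulated data. It was chosen because, in earlier work on these data, the robust fit gave too many small p-values on simulated null data. Intervals are at 95%. Named genes are the 9 receptors, called members of the lists (up to 8 per list and comparison by fold size), the 3 genes most like each receptor, the brightest markers and checks of the sort. *Thy1*, *Siglech*, *C1qb*, *Ms4a7*, *Cd163*, *Cd4*, *Cxcl10*, *Cxcl11*, *Ccl17* and *Ccl22* were named after their values were seen. The receptors, lists, thresholds and tests were chosen with earlier results of these data known. RefSeq tables of GRCm38.p6 served for names, gene order and sequences. Alternatives were the robust fit, array weights, a mean-variance trend, replicate blocks, fits on the compared arrays, other thresholds, probe set rules, scaling to T cell identity genes, cyclic loess, a filter on dim probe sets, and leaving out each array.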

Additional observations from a re-analysis of the deposited data

How the results depend on the processing

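Over 21 alternatives, the tumor to LN calls of *Cxcr3* and *Cx3cr1* (with and without IR) and of *Ccr1* without IR were never lost. The call of *Ccr1* with IR was lost in 1, those of *Ccr4* in 3 without IR and 2 with IR, those of *Cxcr5* in 3 and 2 of 20 (it was too dim for 1), and that of *Ccr2* with IR in 10. Of the 752 values per receptor and alternative 689 kept direction and side of the threshold, 21 lost and 18 gained a call, and 24 changed sign, all of which were differences that passed in neither fit. Leaving out 1 array at a time, 3 to 5 receptors passed between tumor and LN without IR (3 without either tumor array without IR), 2 to 6 with IR (3 without the first and 2 without the second tumor array with IR), and 0 to 2 after IR in LN (2 without the first LN array with IR). After IR in LN the robust fit passed 1 (*Cx3cr1*), and a replicate block within each tissue, an alternative chosen after seeing the data, passed 2 (*Ccr2* and *Cx3cr1*). The cause was not tested.

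Same-numbered arrays deviated together within a tissue (r = 0.43 in LN and 0.431 in tumor over all genes) but not across tissues (-0.137 to 0.069). The numbers were therefore not taken as pairs between tissues. For the comparisons after IR, which lie within a tissue, the labels do not tie the numbers to the experiments, and the main fit used no block. With the replicate block over both tissues 6 receptors passed without IR and 7 with IR, *Ccr6* being added (adjusted p = 0.0390 and 0.0367), and the block lost no receptor's call.

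Signs that turned, on the log2 scale, were these. For *Ccr9* after IR the most variable probe set gave -1.09 in LN and 0.72 in tumor, the mean of all probe sets -0.47 and 0.39, cyclic loess 0.079 in tumor, and T cell scaling 0.32 in tumor. T cell scaling also gave *Ccr9* 0.081 in tumor over LN without IR, *Cxcr5* 0.31 in LN and 0.011 in tumor after IR, *Ccr4* 0.33 and 0.15, and *Ccr1* 0.13 in LN. With 1 array left out, *Ccr9* ran from -0.32 to 0.045 (tumor over LN without IR), -0.96 to 0.038 (with IR), -0.18 to 0.82 (IR in LN) and -0.19 to 0.17 (IR in tumor). After IR in LN *Cxcr5* ran from -0.80 to 0.53, *Ccr4* from -0.93 to 0.72 and *Ccr6* from -0.71 to 1.22, and after IR in tumor *Ccr6* from -0.25 to 0.92.

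T cell scaling moved the median of all genes from -0.09 to 0.13 and from 0.06 to 0.16 between tissues, and from 0.01 to 0.45 and from 0.09 to 0.42 after IR. Over all genes, 1008 passed without IR (540 to 1514 over the alternatives), 1237 with IR (568 to 2412), 191 after IR in LN (0 to 1789) and 18 after IR in tumor (0 to 200). With 2 arrays a group, precision is set by their number, and a level at the lower quartile bounds any difference against it.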

Other observations

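Other marker lists were also counted between tumor and LN samples. Of 12 fibroblast genes 5 were higher in tumor without IR and 6 with IR, with array means of 6.18 to 6.45 in LN and 8.09 to 8.55 in tumor. Of 8 NK cell genes 2 were higher and 1 lower without IR, and 3 and 1 with IR. Of 9 dendritic cell genes 1 was lower in either condition. It was *Ccr7*, also counted above among the other receptors and the naive and central memory genes. Of 9 neutrophil genes none passed.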
